A study of Homo sapiens with 8 samples.

Results

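Integrin subunits and the adaptors and kinases of focal adhesions formed a group of 48 genes, taken by symbol from the 62086 gene identifiers of the deposited table. They comprised 20 integrin subunits and 28 cytoplasmic members, and each of the 48 symbols paired with 1 identifier. The RNA came from BG01, a human embryonic stem cell (hESC) line grown without feeder cells on Matrigel in mTeSR1 medium. The cells received 5 µg/mL of anti-M8nAb, an antibody that neutralizes the secreted glycoprotein MFGE8, or 5 µg/mL of normal mouse IgG as isotype control. There were 4 groups of 2 libraries each: anti-M8nAb for 12 h, IgG for 12 h, anti-M8nAb for 24 h and IgG for 24 h. The labels call the libraries biological replicates but do not give separate cultures, so the p-values rest on how far these libraries spread, which may be technical.

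Integrins are receptors of an alpha and a beta subunit that bind extracellular matrix or ligands with an RGD motif, among them MFGE8, outside the cell. Talins and kindlins bind the beta tail and activate the receptor, vinculin and alpha-actinins tie it to actin, and the kinases FAK and SRC signal through scaffolds such as paxillin and p130Cas. On Matrigel, pluripotent cells hold to laminin and other matrix proteins mainly through integrins that share the beta1 subunit.

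Counts over genes ranged from 21010400 to 21792716 per library. All 10 pluripotent stem cell markers were at 1 CPM (counts scaled to library size by TMM) or more in all 8 libraries, while the fibroblast genes COL3A1, DCN, LUM and FAP stayed under 1 CPM. The summed fibroblast list was 544 to 577 CPM with anti-M8nAb and 481 to 484 CPM with IgG at 12 h, and 681 to 707 against 551 to 567 CPM at 24 h. THY1, at 388 to 565 CPM, made up most of it, and 5 of the 9 genes were at 1 CPM or more in every library. The part of these genes in the results below was not tested. Annotated pseudogenes that passed the filter summed to 5221 CPM in the second anti-M8nAb library at 12 h and to 3518 CPM in the first, against 2397 to 2791 CPM in the other 6 libraries. Counts of called members at 12 h, and of each gene group, are therefore also given without that second library. The fit without it called a smaller share of all genes at 12 h in both directions, 11.6% higher and 11.6% lower. The counts without that library are to be set beside these shares, and not beside those given for all 8 libraries.

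After 12 h of anti-M8nAb 5 members stood higher than with IgG and 10 stood lower, and after 24 h 19 stood higher and 10 lower. edgeR's quasi-likelihood test kept 45 of the 48 members, and a member was called at a Benjamini-Hochberg adjusted p under 0.05 over all 20165 genes kept. The 5 higher members at 12 h were 11.1% of those tested, beside 15.8% of all genes, and the 10 lower members were 22.2%, beside 16.4% of all genes. At 24 h the 19 higher members were 42.2% of those tested, beside 21.2% of all genes called higher, and the 10 lower members were 22.2%, beside 21.3%. Every fit with limma on FPKM, a level per gene length, called fewer members higher at 24 h. Shares of all genes are not given for limma, so the excess over all genes is given for edgeR alone. Calls that limma lost are named in the closing section. The median log2 fold change (log2FC) of the members was -0.03 at 12 h and 0.16 at 24 h, and that of all genes was 0.00 at both times. Most changes were small. The median size of the log2FC was 0.173 for members and 0.258 for all genes at 12 h, and 0.341 against 0.318 at 24 h. A call with a log2FC of at least 1 in size was made for TGFB1I1 alone at 12 h (2.22% of members, 6.37% of all genes) and for ITGA4 alone at 24 h (2.22% of members, 9.6% of all genes). Without the second anti-M8nAb library at 12 h, 6 members were higher and 7 lower at that time. The count of higher members at 12 h was 3 without the first anti-M8nAb or the second IgG library, and the count of lower members at 24 h was 6 without the first anti-M8nAb library. In bulk RNA, fewer cells with a transcript and less of it per cell cannot be told apart.

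A majority of the cytoplasmic members were higher at 24 h, and 2 integrin subunits were. Of the 17 subunits tested, edgeR called 0 higher and 4 lower (23.5%) at 12 h, while at 24 h it called 2 higher (11.8%) and 4 lower (23.5%). For the 0, an unadjusted p under 0.05, DESeq2 and limma on log2(FPKM + 1) also gave 0. Of the 28 cytoplasmic members, 5 were higher (17.9%) and 6 lower (21.4%) at 12 h, whereas 17 rose (60.7%) and 6 fell (21.4%) at 24 h, with a median log2FC of -0.02 at 12 h and 0.24 at 24 h. Beside the shares of all genes, 15.8% higher and 16.4% lower at 12 h and 21.2% and 21.3% at 24 h, the shares lower at 24 h were near the background in both parts. Without the second anti-M8nAb library at 12 h, 0 subunits were higher and 3 lower at that time, and 6 cytoplasmic members were higher and 4 lower. No test compared the 2 parts with each other.

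**Figure D1:**
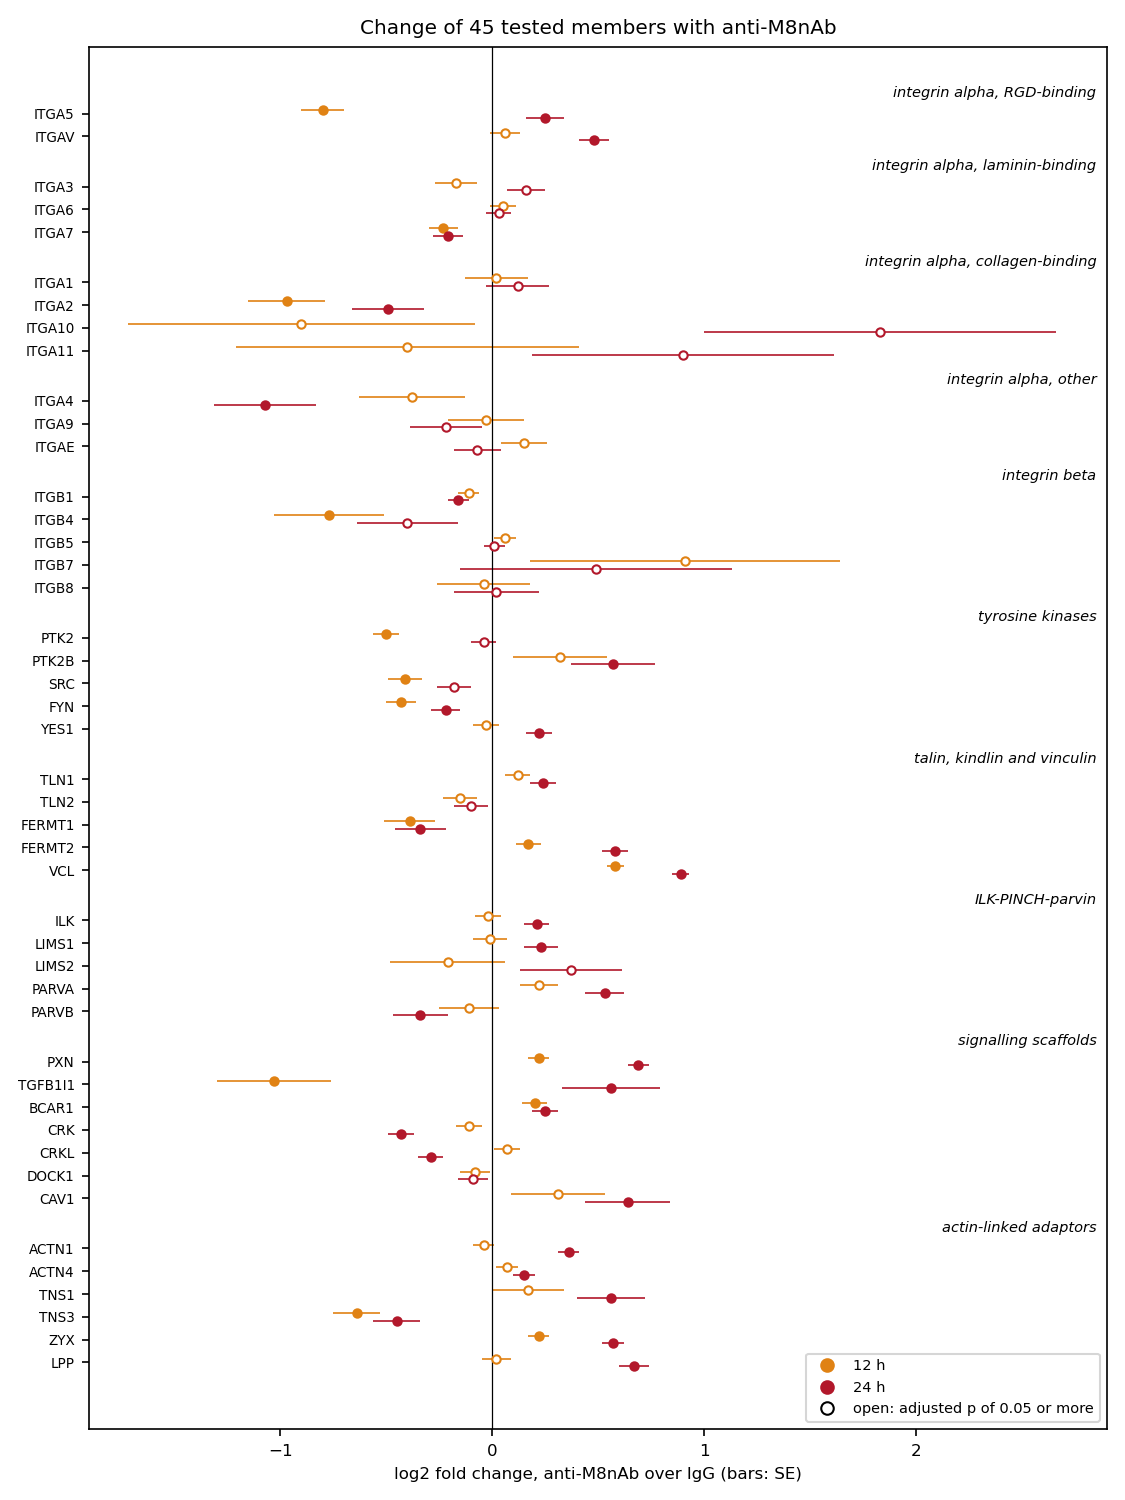
Log2FC of the 45 tested members, anti-M8nAb over IgG, at 12 h (orange) and 24 h (red), ordered by role, with bars for the standard error and open points where the adjusted p was 0.05 or more. VCL reached 0.58 at 12 h and 0.89 at 24 h, and the wide bars belong to ITGA10, ITGA11 and ITGB7, which stayed under 1 CPM in every library.

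The integrin repertoire of these cells was dominated by the beta subunits ITGB5 and ITGB1 and the laminin-binding alpha subunit ITGA6. Levels between genes were compared as FPKM, which divides by the length of all annotated exons of a gene. ITGB5 was highest, with a median of 42.3 FPKM and a range of 38.6 to 47.8 over the 8 libraries, followed by ITGA6 (median 29.2, range 25.8 to 31.6), ITGB1 (20.2, 17.9 to 22.4) and ITGA7 (8.26, 7.11 to 9.54). The FPKM ranges of these 4 genes did not overlap, but their order depends on the annotated lengths. ITGB1 has 14561 bases of exon, against 6515 for ITGB5 and 6679 for ITGA6. By CPM, ITGB1 was at 267 to 315, ITGB5 at 254 to 299 and ITGA6 at 176 to 226. The order of ITGB5, ITGB1 and ITGA6 was therefore not the same on both scales. ITGA5, ITGAE, ITGA3 and ITGAV followed with medians of 4.54, 3.9, 3.63 and 3.37 FPKM and overlapping ranges, so that their order was not resolved. ITGAV is annotated with 19336 bases of exon, the most of the 20 subunits, and its FPKM is relative to that whole length. ITGA2, ITGA9, ITGA1, ITGB4, ITGB8 and ITGA4 had medians between 0.971 and 0.296 FPKM.

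Other subunits were at the limit of detection. ITGB7, ITGA10 and ITGA11 never exceeded 0.731, 0.535 and 0.877 CPM. Of the exon length of ITGB7, 42.3% lies opposite ZNF740, which was at 52 to 63 CPM, so that its few counts cannot be told apart from those of ZNF740 there. ITGB3, the other beta partner through which the alphav subunit binds MFGE8, had 4 and 1 counts with anti-M8nAb and 5 and 1 counts with IgG at 12 h, and at 24 h 5 and 5 counts against 2 and 6. These 29 counts fell below the filter, and ITGB3 was not tested. Of its exon length, 33.2% also belongs to another annotated gene on the same strand. ITGA8 and ITGB6 had 0 counts in all 8 libraries, which allows up to 3 counts, or 0.138 to 0.143 CPM, in each library. This limit covers counting error only.

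**Figure D2:**
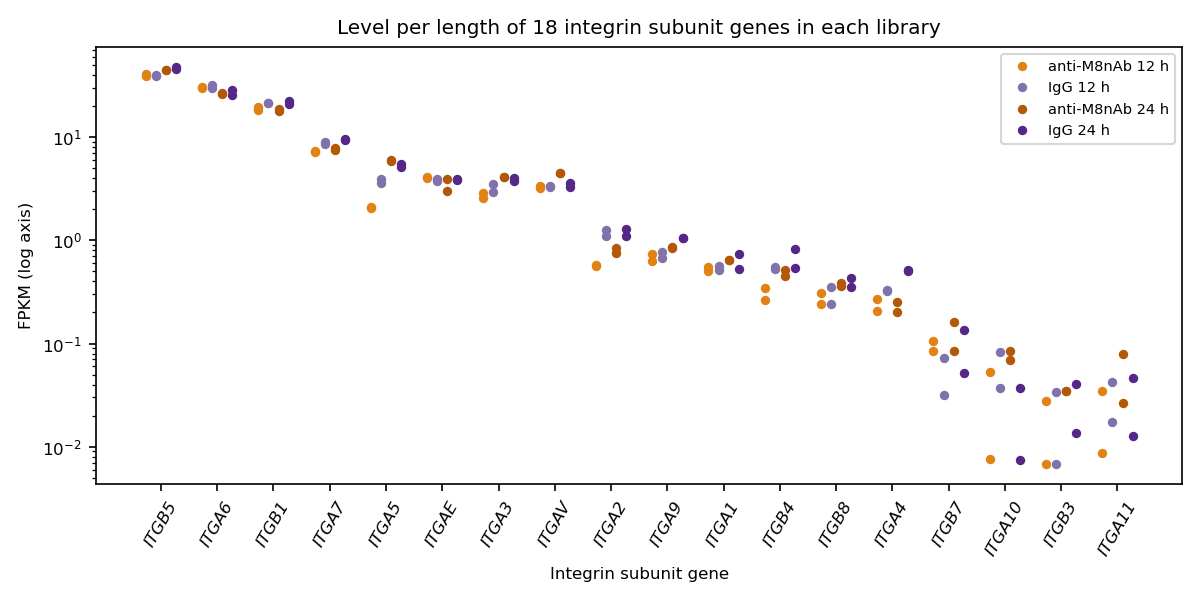
FPKM (log axis) of 18 integrin subunit genes in each of the 8 libraries, ordered by their median, with a point per library and a colour per group. ITGB5 sits at 38.6 to 47.8 FPKM and ITGB3 under 0.05 FPKM in every library, and ITGA8 and ITGB6, with 0 counts, are not drawn.

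Of the subunits of the receptor for MFGE8, ITGAV was higher with anti-M8nAb at 24 h and ITGB5 was not called. ITGAV, the alphav subunit on chromosome 2 (GRCh38, 186590010 to 186680901), was at 64.2 and 67.2 CPM with anti-M8nAb and at 63.8 and 62.5 CPM with IgG at 12 h, and at 88.2 and 89.1 against 66.9 and 60.4 CPM at 24 h. Both anti-M8nAb libraries lay above both IgG libraries at each time, by a small margin at 12 h. Its log2FC was 0.06 at 12 h (SE 0.07, adjusted p = 0.587) and 0.48 at 24 h (SE 0.07, adjusted p = 2.61e-07). ITGB5, its beta5 partner on chromosome 3 (124761948 to 124901418), was at 261 and 270.4 CPM with anti-M8nAb and at 255 and 254 CPM with IgG at 12 h, and at 297 and 295 against 287 and 299 CPM at 24 h. The groups overlapped at 24 h, and no difference was called at either time. This gave a log2FC of 0.06 at 12 h (95% interval -0.04 to 0.16) and 0.01 at 24 h (-0.09 to 0.12). ITGB1, the beta1 subunit shared by most of the matrix-binding integrins, was at 295 and 274 CPM with anti-M8nAb and at 304 and 311 CPM with IgG at 12 h, and at 276 and 267 against 315 and 291 CPM at 24 h. It fell by 0.16 on the log2 scale at 24 h (SE 0.05, adjusted p = 0.0134) and was not called at 12 h (-0.11, adjusted p = 0.0987). The 24 h call was lost without the first IgG library (-0.11, adjusted p = 0.148) or the second anti-M8nAb library (-0.13, adjusted p = 0.111).

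ITGA5, the alpha5 subunit of the fibronectin receptor, moved in opposite directions at the 2 times. Its gene lies on chromosome 12 from 54395261 to 54419266. It was at 16.1 and 15.5 CPM with anti-M8nAb against 26.0 and 28.9 CPM with IgG at 12 h, and at 44.9 and 44.3 against 36.5 and 38.5 CPM at 24 h. The groups were separate at both times, anti-M8nAb being the lower at 12 h and the higher at 24 h. The log2FC was -0.80 at 12 h (SE 0.10, adjusted p = 2.13e-08) and 0.25 at 24 h (SE 0.09, adjusted p = 0.0215). The call at 24 h was lost with DESeq2 (0.25, adjusted p = 0.0613), and without either anti-M8nAb library (0.24 and 0.26, adjusted p = 0.0887 and 0.0655) or the first IgG library (0.20, adjusted p = 0.135). ITGA5 also differed with culture time in the IgG cells, being higher at 24 h than at 12 h by 0.45 on the log2 scale (SE 0.09).

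The remaining called subunits were all lower with anti-M8nAb. ITGA2, the alpha2 collagen receptor subunit, was at 4.76 and 4.58 CPM with anti-M8nAb against 9.77 and 8.60 CPM with IgG at 12 h, and at 6.08 and 6.82 against 9.81 and 8.33 CPM at 24 h. Both anti-M8nAb libraries were below both IgG libraries at each time. It fell by 0.97 on the log2 scale at 12 h (SE 0.18, adjusted p = 1.98e-05) and by 0.49 at 24 h (SE 0.17, adjusted p = 0.0159). The 24 h call was lost with DESeq2 (adjusted p = 0.0645), without the first anti-M8nAb library (-0.41, adjusted p = 0.122) and without the first IgG library (-0.38, adjusted p = 0.147). ITGA4, the alpha4 subunit that binds VCAM1 and fibronectin, was at 2.99 and 2.27 CPM with anti-M8nAb and at 3.36 and 3.5 CPM with IgG at 12 h, and at 2.77 and 2.19 against 5.28 and 5.15 CPM at 24 h. The groups did not overlap at either time, and the gap was the wider at 24 h. Its log2FC was -0.38 at 12 h (SE 0.25, adjusted p = 0.253) and -1.07 at 24 h (SE 0.24, adjusted p = 0.000289). Of the exon length of ITGA4, 26.4% lies opposite CERKL, which had a log2FC of -1.56 at 24 h, and since the strand setting of the counting is not given in the sources used here, reads of the 2 genes cannot be told apart there.

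ITGB4, the beta4 subunit of the hemidesmosome receptor, was at 2.40 and 1.83 CPM with anti-M8nAb and at 3.55 and 3.68 CPM with IgG at 12 h, and at 3.55 and 3.12 against 3.51 and 5.29 CPM at 24 h. Libraries of the treatments were separate at 12 h and overlapped at 24 h. This gave a log2FC of -0.77 at 12 h (SE 0.26, adjusted p = 0.021) and -0.40 at 24 h (adjusted p = 0.19). The 12 h call was lost with DESeq2 (adjusted p = 0.0796), without either IgG library (-0.79 and -0.73, adjusted p = 0.0732 and 0.0975) and without the second anti-M8nAb library (-0.58, adjusted p = 0.172). ITGA7, a laminin-binding alpha subunit best known from muscle, fell on the log2 scale by 0.23 at 12 h (adjusted p = 0.00792) and by 0.21 at 24 h (adjusted p = 0.00909). It lost its call without the first IgG library (-0.19, adjusted p = 0.122) or the first anti-M8nAb library (-0.21, adjusted p = 0.0804) at 12 h, and without the second anti-M8nAb library (-0.18, adjusted p = 0.0936) at 24 h. ITGA6, its abundant laminin-binding relative, was not called, with log2FCs of 0.05 (95% interval -0.06 to 0.17) at 12 h and 0.03 (-0.08 to 0.15) at 24 h. ITGA1, ITGA3, ITGA9, ITGA10, ITGA11, ITGAE, ITGB7 and ITGB8 were not called at either time.

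The tyrosine kinases of adhesion sites were lower or not called at 12 h. PTK2, which encodes FAK, was at 112 and 112 CPM with anti-M8nAb against 157 and 160.3 CPM with IgG at 12 h, and at 162 and 169 against 174 and 167 CPM at 24 h. The treatments were separate at 12 h and overlapped at 24 h. PTK2 fell by 0.50 on the log2 scale at 12 h (SE 0.06, adjusted p = 1.78e-09), and at 24 h its log2FC was -0.04 (95% interval -0.15 to 0.07, adjusted p = 0.581). SRC, the kinase that docks on phosphorylated FAK, had 41.1 and 39.5 CPM with anti-M8nAb against 51.7 and 55.1 CPM with IgG at 12 h, a log2FC of -0.41 (SE 0.08, adjusted p = 9.8e-05). At 24 h SRC was not called (-0.18, adjusted p = 0.0649). FYN, a SRC family kinase, fell by 0.43 at 12 h (SE 0.07, adjusted p = 7.99e-06) and by 0.22 at 24 h (SE 0.07, adjusted p = 0.00995). At 24 h the call was lost without the first anti-M8nAb library (-0.14, adjusted p = 0.229) or the second IgG library (-0.20, adjusted p = 0.0677).

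The other kinases were higher at 24 h. PTK2B, which encodes the FAK relative PYK2, was at 4.32 and 4.68 CPM with anti-M8nAb and at 2.9 and 4.28 CPM with IgG at 12 h, and at 7.64 and 7.21 against 4.66 and 5.33 CPM at 24 h. Both anti-M8nAb libraries exceeded both IgG libraries at each time. The log2FC was 0.32 at 12 h (adjusted p = 0.267) and 0.57 at 24 h (SE 0.20, adjusted p = 0.0166). The call was lost with DESeq2 (adjusted p = 0.0813), without the first anti-M8nAb library (0.53, adjusted p = 0.0884) and without the first IgG library (0.47, adjusted p = 0.14). YES1, another SRC family kinase, rose by 0.22 at 24 h (SE 0.06, adjusted p = 0.002) and lost its call without the second anti-M8nAb library (0.16, adjusted p = 0.0721).

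VCL, which encodes vinculin, the protein that reinforces the link from talin to actin under load, gave the smallest p of the 45 tested members at both times. The gene lies on chromosome 10 from 73995193 to 74121363 and had a median of 75.0 FPKM over the 8 libraries. This was the highest of all members, but ZYX followed at 72.1 with an overlapping range. In IgG cells ZYX had the higher mean, 64.8 against 57.0 FPKM at 12 h and 73.3 against 68.5 FPKM at 24 h. VCL was at 860.2 and 822 CPM with anti-M8nAb against 568 and 557 CPM with IgG at 12 h, and at 1238 and 1198 against 674 and 644 CPM at 24 h. The anti-M8nAb libraries were well above the IgG libraries at both times, and the gap was the wider at 24 h. VCL rose by 0.58 on the log2 scale at 12 h (SE 0.04, adjusted p = 2.55e-14) and by 0.89 at 24 h (SE 0.04, adjusted p = 4.66e-21), and stayed called in all 18 alternatives run, at 0.51 to 0.62 and 0.79 to 0.91. Of its exon length, 11.1% lies opposite AP3M1, whose log2FC at 24 h was -0.34.

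FERMT2, which encodes kindlin-2, was at 162 and 157 CPM with anti-M8nAb against 145 and 138 CPM with IgG at 12 h, and at 180.5 and 179 against 121 and 119 CPM at 24 h. The groups were separate at both times. FERMT2 rose by 0.17 at 12 h (SE 0.06, adjusted p = 0.0171) and by 0.58 at 24 h (SE 0.06, adjusted p = 1.39e-11). The 12 h call was lost without the first anti-M8nAb library (0.15, adjusted p = 0.131) or the second IgG library (0.15, adjusted p = 0.18). FERMT1, the kindlin of epithelia, went the other way and fell by 0.39 at 12 h (adjusted p = 0.00678) and by 0.34 at 24 h (adjusted p = 0.0176). FERMT1 lost its call without the second library of either group at 12 h (-0.35 for anti-M8nAb and -0.27 for IgG, adjusted p = 0.0571 and 0.204) and, at 24 h, with DESeq2 (adjusted p = 0.0591) and without the first library of either group (-0.28 and -0.20, adjusted p = 0.132 and 0.277). TLN1, the main talin of most cells, rose by 0.24 at 24 h (SE 0.06, adjusted p = 0.000483), a call lost with limma on log2(FPKM + 1) (0.15, adjusted p = 0.101), and its relative TLN2 was not called at either time.

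The ILK, PINCH and parvin proteins form a complex that links beta tails to actin. PARVA, the gene of alpha-parvin, was at 31.4 and 30.8 CPM with anti-M8nAb and at 27.2 and 26.1 CPM with IgG at 12 h, and at 42.3 and 42 against 30.1 and 28.2 CPM at 24 h. The libraries were separate at both times. Its log2FC was 0.22 at 12 h (SE 0.09, adjusted p = 0.0609) and 0.53 at 24 h (SE 0.09, adjusted p = 4e-06). The 12 h change was called by edgeR with each time fitted alone (0.22, adjusted p = 0.0406). It was also called with a filter at a mean of 1 CPM (0.23, adjusted p = 0.046). PARVB, the gene of beta-parvin, fell by 0.34 at 24 h (SE 0.13, adjusted p = 0.0277), a call lost with DESeq2 (adjusted p = 0.0983), without the first anti-M8nAb library (-0.16, adjusted p = 0.437) and without the second IgG library (-0.23, adjusted p = 0.276).

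ILK and LIMS1, the gene of PINCH1, rose by 0.21 and 0.23 at 24 h (adjusted p = 0.00458 and 0.0157). Without the second anti-M8nAb library the calls were lost for ILK (0.16, adjusted p = 0.0848) and LIMS1 (0.20, adjusted p = 0.114), as they were without the first IgG library for ILK (0.16, adjusted p = 0.0663) and without the second for LIMS1 (0.13, adjusted p = 0.266). ILK shares 78.5% of its exon length with TAF10 on the other strand, which had a log2FC of 0.20, so the 2 transcripts cannot be told apart. LIMS1 has close paralogs between which the counting could split reads, and its value is uncertain. LIMS2 was not called.

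PXN, the gene of paxillin, a scaffold that FAK and vinculin bind, was at 173 and 167 CPM with anti-M8nAb against 147 and 146 CPM with IgG at 12 h, and at 308 and 306 against 185 and 196 CPM at 24 h. No overlap was seen, the groups being separate at both times, far more widely at 24 h. PXN rose by 0.22 at 12 h (SE 0.05, adjusted p = 0.00157) and by 0.69 at 24 h (SE 0.05, adjusted p = 1.2e-14). Of its exon length, 27.2% lies opposite PXN-AS1, which was at 111 to 219 CPM and had log2FCs of 0.28 and 0.71, so the share of each strand in these values cannot be told apart. TGFB1I1, which encodes the paxillin relative HIC-5, was at 2.26 and 1.45 CPM with anti-M8nAb against 4.42 and 3.13 CPM with IgG at 12 h, and at 8.42 and 5.16 against 4.53 and 4.67 CPM at 24 h. Like ITGA5, TGFB1I1 had both anti-M8nAb libraries below IgG at 12 h and above IgG at 24 h. This gave a log2FC of -1.03 at 12 h (SE 0.27, adjusted p = 0.00275) and 0.56 at 24 h (SE 0.23, adjusted p = 0.0401). The 12 h call was lost without the second anti-M8nAb library (-0.74, adjusted p = 0.063) or the first IgG library (-0.75, adjusted p = 0.107). The 24 h call was lost with DESeq2 (adjusted p = 0.174), without the first anti-M8nAb library (0.17, adjusted p = 0.684) and without either IgG library (0.53 and 0.58, adjusted p = 0.174 and 0.14).

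Of the other scaffolds, BCAR1, the gene of p130Cas, rose at both times and the CRK adaptors that bind p130Cas fell at 24 h. BCAR1 had 132 and 132 CPM with anti-M8nAb against 117 and 113 CPM with IgG at 12 h, and then 176 and 159.9 against 131 and 151 CPM at 24 h. The groups did not overlap, and the log2FC was 0.20 at 12 h (SE 0.06, adjusted p = 0.0129) and 0.25 at 24 h (SE 0.06, adjusted p = 0.000903). The 12 h call was lost without the second IgG library (0.18, adjusted p = 0.127), and the 24 h call without the first anti-M8nAb library (0.18, adjusted p = 0.0512) or the first IgG library (0.15, adjusted p = 0.0874). CRK was at 71.3 and 74.1 CPM with anti-M8nAb against 98.2 and 97.6 CPM with IgG at 24 h, and CRKL was at 128 and 135 against 158 and 162 CPM. Both genes had separate groups, with log2FCs of -0.43 (SE 0.06, adjusted p = 4.95e-07) for CRK and -0.29 (SE 0.06, adjusted p = 7.82e-05) for CRKL. At 12 h CRK and CRKL were not called, at -0.11 and 0.07. CAV1, the gene of caveolin-1, was at 4.07 and 4.0 CPM with anti-M8nAb and at 3.87 and 2.62 CPM with IgG at 12 h, and at 7.40 and 8.23 against 5.46 and 4.54 CPM at 24 h. The 2 treatments were separate at each time. CAV1 was called higher at 24 h (0.64, SE 0.20, adjusted p = 0.00713), a call lost without the second anti-M8nAb library (0.57, adjusted p = 0.0707) or the second IgG library (0.52, adjusted p = 0.105), and was not called at 12 h (0.31). DOCK1, a RAC activator that works with the CRK proteins, was not called at either time.

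Of the 6 adaptors nearest to actin, 5 were called higher and 1 lower at 24 h, beside 21.2% and 21.3% of all genes. ZYX, the gene of zyxin, which gathers at strained actin fibres, was at 252 and 234 CPM with anti-M8nAb against 213 and 205 CPM with IgG at 12 h, and at 343 and 341 against 219.8 and 241 CPM at 24 h. The groups were separate at both times. ZYX rose by 0.22 at 12 h (SE 0.05, adjusted p = 0.0017) and by 0.57 at 24 h (SE 0.05, adjusted p = 4.75e-12), and the 12 h call was lost without the first anti-M8nAb library (0.16, adjusted p = 0.0584). LPP, a zyxin relative, was at 68.9 and 69.1 CPM with anti-M8nAb and at 70.3 and 65.9 CPM with IgG at 12 h, and at 105 and 107 against 67.7 and 65.3 CPM at 24 h. The LPP groups overlapped at 12 h (0.02, 95% interval -0.12 to 0.16) and were far apart at 24 h (0.67, SE 0.07, adjusted p = 1.76e-11). ACTN1, a non-muscle alpha-actinin, was at 426 and 411 CPM with anti-M8nAb against 321 and 333 CPM with IgG at 24 h, with a log2FC of 0.36 (SE 0.05, adjusted p = 1.17e-07), and was not called at 12 h (-0.04). Its relative ACTN4 rose by 0.15 at 24 h (adjusted p = 0.0152), a call lost without the first library of either group (0.11 for anti-M8nAb and 0.09 for IgG, adjusted p = 0.156 and 0.236). Of the exon length of ACTN4, 14.2% lies opposite CAPN12, whose log2FC at 24 h was -0.10.

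The tensins, which bind beta tails and actin, moved in opposite directions at 24 h. TNS1 was at 6.92 and 7.72 CPM with anti-M8nAb and at 6.5 and 6.49 CPM with IgG at 12 h, and at 10.9 and 10 against 7.19 and 7.0 CPM at 24 h. TNS3 was at 16.0 and 15.0 CPM with anti-M8nAb against 23.0 and 25.6 CPM with IgG at 12 h, and at 16.5 and 16.7 against 22.9 and 22.2 CPM at 24 h. The anti-M8nAb libraries were above IgG for TNS1 and below IgG for TNS3, with no overlap at either time. TNS1 was not called at 12 h (0.17, adjusted p = 0.465) and rose by 0.56 at 24 h (SE 0.16, adjusted p = 0.00357). TNS3 fell by 0.64 at 12 h (SE 0.11, adjusted p = 1.02e-05) and by 0.45 at 24 h (SE 0.11, adjusted p = 0.000994).

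**Figure D3:**
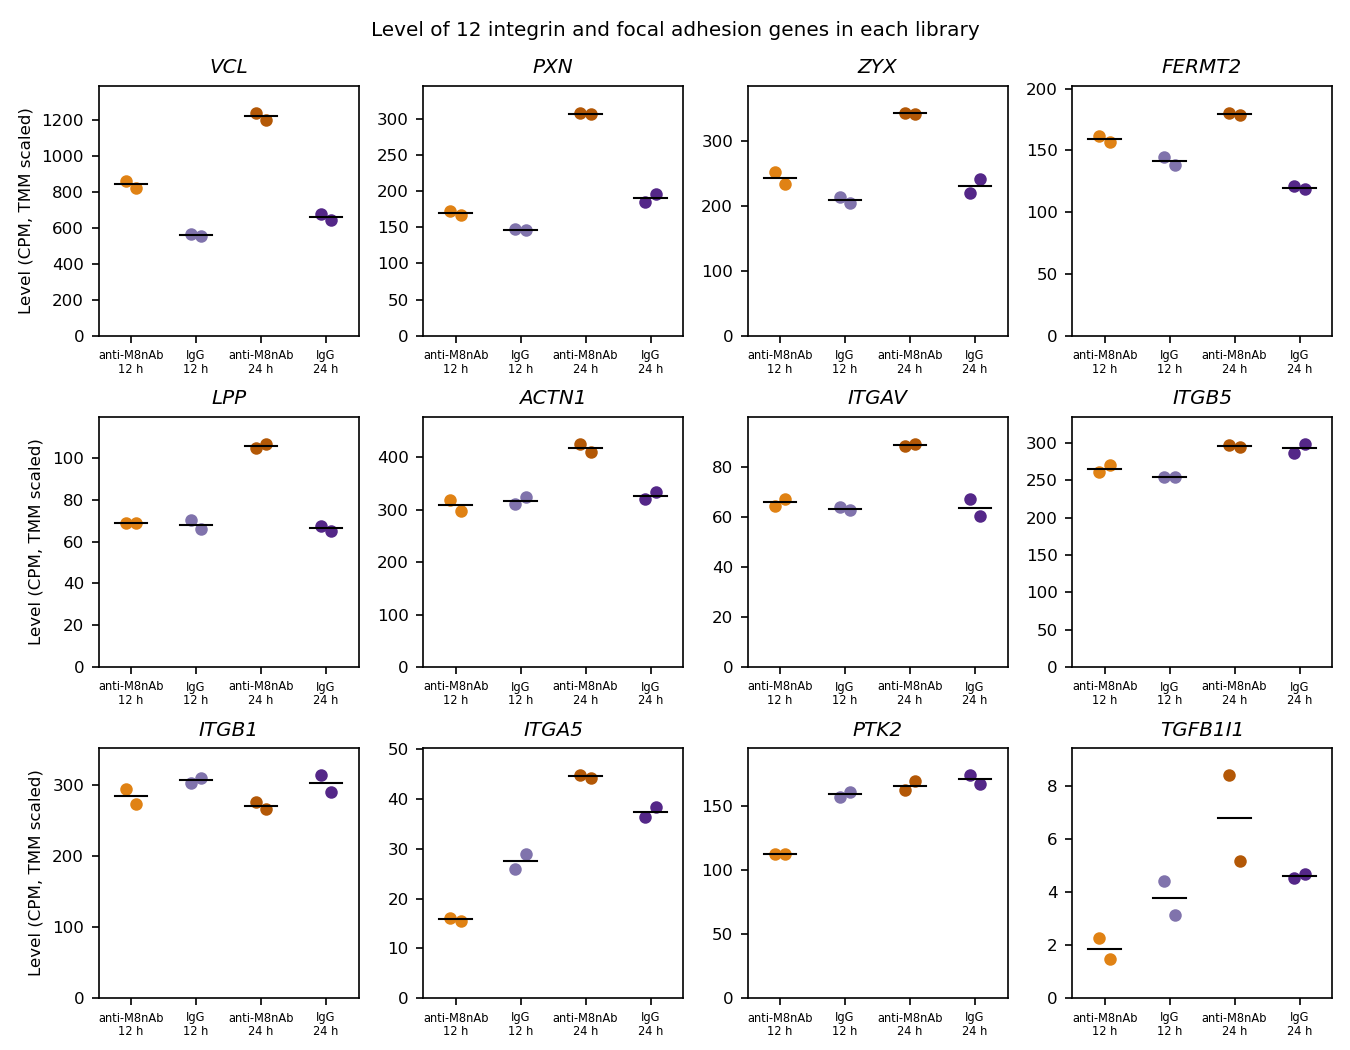
CPM, scaled by TMM, of 12 members in each library, with a point per library and a line at the mean of each group of 2. VCL, PXN, ZYX and FERMT2 sit higher with anti-M8nAb at both times, LPP, ACTN1 and ITGAV were called higher at 24 h alone, and ITGA5 and TGFB1I1 lie below IgG at 12 h and above IgG at 24 h.

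VCL and BCAR1 were higher at both times, and ITGA5 was lower and then higher. For these genes, chosen among the members that hold a searched motif, the 250 bases upstream of the RefSeq start site (GRCh38.p14) are printed. Each runs 5′ to 3′ in the direction of its gene, and capitals mark the motif found. VCL (chr10:73997866-73998115, plus strand) and ITGA5 (chr12:54419267-54419516, minus strand) hold the core of the TEAD motif, GGAATG, with its first base at -171 and -82 from the start site. BCAR1 (chr16:75268008-75268257, minus strand) holds an AP-1 motif, TGANTCA, at -64. The VCL window lies inside the gene as placed above, and the BCAR1 window overlaps its annotated gene, which reaches 75268053. Both genes thus have an annotated start further upstream than the RefSeq site used.
VCL: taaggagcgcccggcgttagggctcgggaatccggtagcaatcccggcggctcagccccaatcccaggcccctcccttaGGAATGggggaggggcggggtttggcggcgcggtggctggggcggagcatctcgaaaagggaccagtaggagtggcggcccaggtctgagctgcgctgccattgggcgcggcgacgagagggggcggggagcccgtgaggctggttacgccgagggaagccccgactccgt
ITGA5: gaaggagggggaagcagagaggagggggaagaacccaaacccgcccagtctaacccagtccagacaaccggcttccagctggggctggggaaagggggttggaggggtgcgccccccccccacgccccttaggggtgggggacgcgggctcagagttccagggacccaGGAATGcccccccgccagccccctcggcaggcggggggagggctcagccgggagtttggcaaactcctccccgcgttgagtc
BCAR1: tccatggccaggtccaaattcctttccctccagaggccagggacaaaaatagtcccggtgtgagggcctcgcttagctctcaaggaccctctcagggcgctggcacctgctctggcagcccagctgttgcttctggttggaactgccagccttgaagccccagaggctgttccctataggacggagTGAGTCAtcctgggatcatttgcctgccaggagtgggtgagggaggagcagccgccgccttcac
The table of start sites gave a window for 38 of the 48 members, and it held none for FERMT1, ITGA3, ITGA7, ITGA9, ITGB3, ITGB4, PARVA, PTK2, PTK2B and SRC. Searched on both strands, GGAATG occurred in 4 of the 38 windows (10.5%, ITGA5, ITGA10, ITGB1 and VCL) and in 11.9% of 27305 windows over all genes. TGANTCA occurred in 2 (5.26%, ACTN4 and BCAR1), against 6.6% of all windows, and the CArG box bound by SRF in 1 (2.63%, ITGB6), against 1.14%. No window of a member held more than 1 of the 3 motifs, so that no matches overlapped. PXN, ZYX and FERMT2, which were also higher at both times, held none of the 3 motifs. TGFB1I1, which was lower and then higher like ITGA5, held none either. A match describes letters in a window and not a bound site.

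The response to anti-M8nAb differed between the times for 13 members. The difference between the log2FCs at 24 h and at 12 h, tested as its own contrast, was positive for 11 members (24.4% of those tested, beside 5.79% of all genes) and negative for 2 (4.44%, beside 6.54%). The positive differences were 1.59 for TGFB1I1 (SE 0.35), 1.05 for ITGA5 (SE 0.14), 0.66 for LPP (SE 0.10), 0.47 for PXN (SE 0.08), 0.46 for PTK2 (SE 0.08), 0.42 for ITGAV (SE 0.10), 0.41 for FERMT2 (SE 0.08), 0.40 for ACTN1 (SE 0.07), 0.35 for ZYX (SE 0.08), 0.31 for VCL (SE 0.06) and 0.25 for YES1 (SE 0.08). The negative differences were those of CRKL (-0.36, SE 0.08) and CRK (-0.32, SE 0.09). For PTK2 the difference stood for a lower level at 12 h that was not called at 24 h, and for LPP, ACTN1, ITGAV and YES1 for a higher level called at 24 h alone.

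**Figure D4:**
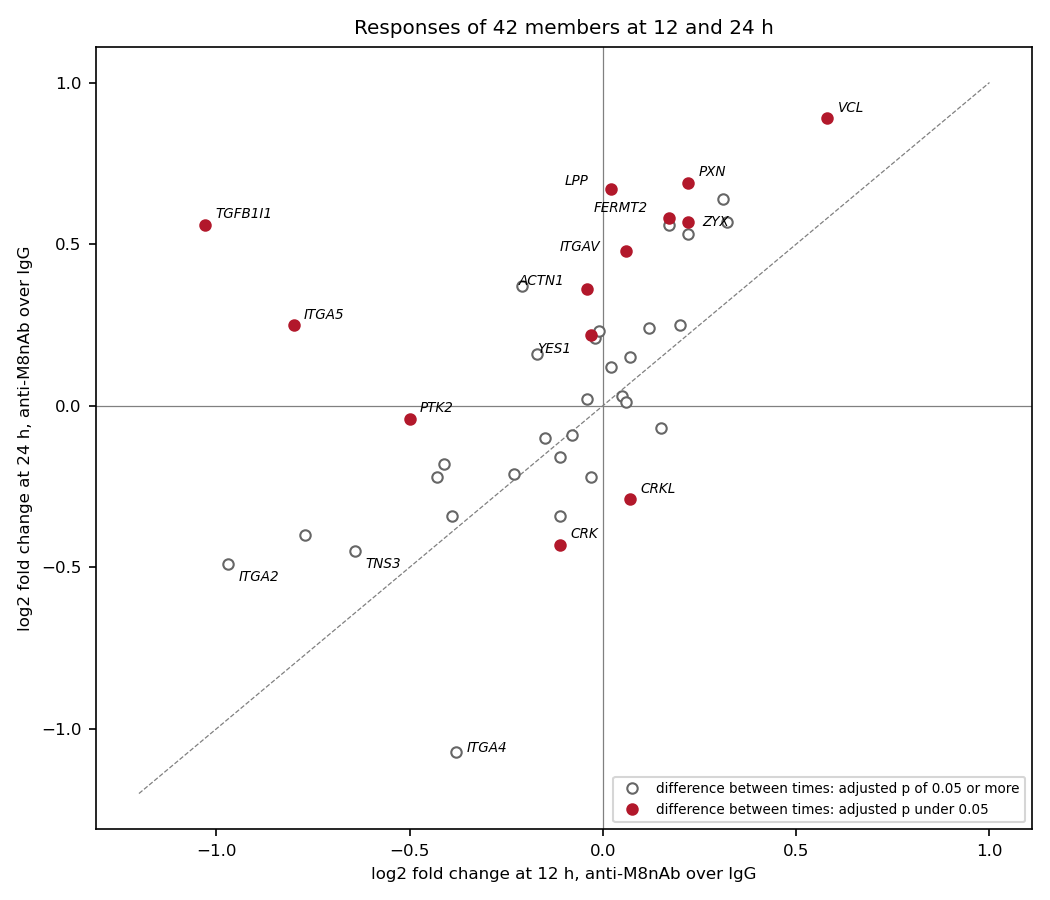
Log2FC, anti-M8nAb over IgG, at 24 h against that at 12 h for the 42 members with a mean of at least 1 CPM, with filled points where the difference between the times had an adjusted p under 0.05 and a dashed line where both responses are equal. Of the 13 filled points, 11 lie above the line, and CRK and CRKL lie below it.

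Some members also differed with culture time alone. In the IgG cells 9 members were higher at 24 h than at 12 h (20% of those tested, beside 7.01% of all genes) and 2 were lower (4.44%, beside 6.64%). The higher members were CAV1 (0.62), PARVB (0.56), ITGA9 (0.50), ITGA5 (0.45), PXN (0.38), BCAR1 (0.29), VCL (0.23), CRKL (0.21) and ITGB5 (0.20), as log2FCs, and the lower were FERMT2 (-0.24) and ITGA6 (-0.20). VCL, PXN, BCAR1, ITGA5 and CAV1 were therefore higher at 24 h in IgG cells and called higher again with anti-M8nAb at that time. FERMT2 was lower at 24 h in IgG cells and higher with anti-M8nAb. This comparison uses the same IgG libraries as the comparisons with anti-M8nAb. Its count of 11 members fell to 5 without the second IgG library at 24 h and to 7 without either IgG library at 12 h.

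Further adaptors of adhesion sites were counted in the same way. Of 43 tested out of 44, 8 were higher (18.6%) and 14 lower (32.6%) at 12 h, beside 15.8% and 16.4% of all genes, whereas 18 rose (41.9%) and 8 fell (18.6%) at 24 h, beside 21.2% and 21.3%. The median log2FC was 0.01 at 12 h and 0.10 at 24 h. Without the second anti-M8nAb library, 7 were higher and 12 lower at 12 h. Those named here, from the adaptors with the smallest adjusted p at 24 h, encode actin-binding proteins or their partners. FLNC, the gene of filamin C, was at 17.8 and 18.5 CPM with anti-M8nAb and at 16.2 and 15.5 CPM with IgG at 12 h, and at 76.6 and 68.5 against 12.8 and 14.6 CPM at 24 h. FLNC was thus several times higher with anti-M8nAb at 24 h, with a log2FC of 2.40 (SE 0.10, adjusted p = 4.09e-24), and not called at 12 h (0.20). PALLD, the gene of the actin cross-linker palladin, rose by 0.39 at 12 h and by 1.11 at 24 h (SE 0.08 each) and CSRP1 by 0.25 and 1.01 (SE 0.09 each).

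Of the integrin subunits outside the 48, ITGA2B, the platelet alphaIIb subunit, was at 2.60 and 3.04 CPM with anti-M8nAb against 5.21 and 4.51 CPM with IgG at 12 h, and at 2.82 and 3.36 against 5.55 and 6.65 CPM at 24 h. It fell by 0.78 at 12 h (SE 0.23, adjusted p = 0.00609) and by 0.98 at 24 h (SE 0.22, adjusted p = 0.000264), with separate groups at both times. ITGAM and ITGB2, subunits of leukocyte integrins, stayed under 1 CPM and were not called. Of the integrin ligands, 18 of 19 were tested, of which 7 rose (38.9%) and 6 fell (33.3%) at 12 h, beside 15.8% and 16.4% of all genes, while 9 rose (50%) and 6 fell (33.3%) at 24 h, beside 21.2% and 21.3%. Without the second anti-M8nAb library, 7 rose and 3 fell at 12 h. CCN1, a matricellular ligand of alphav integrins, was at 145 and 142 CPM with anti-M8nAb against 64.4 and 57.0 CPM with IgG at 12 h, and at 407 and 458 against 79.3 and 79.4 CPM at 24 h. Its groups were far apart at both times, with log2FCs of 1.24 and 2.45 (SE 0.06 each), and CCN2, THBS1 and COL1A2 had 3.32, 2.22 and -1.09 at 24 h.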

How the data were processed

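RNA of 8 BG01 libraries was sequenced. The authors used Trimmomatic for trimming, STAR (2-pass) for alignment to GRCh38.p14 and Picard against duplicates, and deposited raw HTSeq counts per Ensembl gene. A further deposited table holds FPKM, which the authors obtained with RNAnorm. FastQC 0.11.9 is named in the submitters' processing notes. Each table has 4 further columns that were not used. In the count table, 1005 lines with a blank gene name held 53.3 to 54.1% of the counts of a library and were not taken as genes. Identifiers were paired with symbols in GENCODE v44 without their version.

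Counts passing filterByExpr were TMM-scaled. A model with 1 mean per group over all 8 libraries was fitted in R 4.3.3 (edgeR 4.0.16), and contrasts were tested by the two-sided quasi-likelihood F test with Benjamini-Hochberg adjustment. The common biological coefficient of variation was 5.53%, and the variance between replicates was on average 2.28 to 4.54 times that of counting alone. Alternatives were DESeq2 1.42.0, its size factors, each time alone, other filters, limma 3.58.1 on log2(FPKM + 1) or log2(FPKM + 0.1), a replicate block, each library left out in turn and, added after seeing the data, protein-coding genes alone. Members with an adjusted p under 0.05, an absolute log2 fold change of 0.5 or more and a mean of at least 1 CPM, and ITGAV, ITGB1, ITGB3 and ITGB5, are given by library. SRC, BCAR1, CRK, CRKL and ACTN1 are given by library outside this rule, chosen after their values were seen. Members and lists were chosen with earlier results of these data known. Opposite-strand overlaps of 10% or more of a gene's exons are given. Promoter windows are from RefSeq. An adaptor with a small adjusted p at 24 h is not reported here.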

Additional observations from a re-analysis of the deposited data

Results flagged for a closer look

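The difference between the responses to anti-M8nAb at 24 h and at 12 h passed edgeR's test for 13 members, and no cause of it was tested. On the log2 scale it was 1.59 for TGFB1I1 (adjusted p = 0.00137), 1.05 for ITGA5 (2.02e-07), 0.66 for LPP (2.34e-06), 0.47 for PXN (1.76e-05), 0.46 for PTK2 (5.37e-05), 0.42 for ITGAV (0.00274) and 0.41 for FERMT2 (0.000298). It was 0.40 for ACTN1 (adjusted p = 8.36e-05), 0.35 for ZYX (0.001), 0.31 for VCL (0.000524), 0.25 for YES1 (0.0357), -0.32 for CRK (0.0129) and -0.36 for CRKL (0.00185). For ITGA5 and TGFB1I1 both anti-M8nAb libraries lay below both IgG libraries at 12 h and above them at 24 h.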

How the results depend on the processing

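No call of a member reversed under any alternative. Of 44 calls at 12 or 24 h, 19 were kept under every alternative run for them and 25 were lost under at least 1. With protein-coding genes alone, edgeR also called PARVA and TLN1 higher at 12 h (0.24 and 0.14, adjusted p = 0.0327 and 0.0357). limma on log2(FPKM + 1), on log2(FPKM + 0.1) and on log2(FPKM + 1) with no filter gave 2, 2 and 1 members higher at 12 h (5 with edgeR), 9, 8 and 8 higher at 24 h (19), 0, 0 and 0 past the fold threshold (2), and 5, 4 and 1 that differed between IgG at 24 and 12 h (11). limma with no filter gave 4 members with a response that differed between the times (13). The limma fits used FPKM without TMM scaling, and those with a filter tested fewer members than edgeR. Shares over all genes are not given for them. ITGB5 at 24 h averaged 296 CPM with anti-M8nAb and 293 CPM with IgG, but 44.4 and 46.7 FPKM. On log2(FPKM + 1), limma also called CRK at 12 h and SRC and DOCK1 at 24 h lower, which edgeR did not. The part of the scale in these differences was not tested. With limma in at least 1 form, the calls of ITGB4, FERMT1, FERMT2, PXN, TGFB1I1, BCAR1 and ZYX at 12 h were lost. At 24 h limma lost those of ITGA5, ITGA2, PTK2B, YES1, TLN1, FERMT1, ILK, LIMS1, PARVB, TGFB1I1, BCAR1, CAV1, ACTN4 and TNS1. No library left out lost the calls of TLN1 and TNS1 at 24 h and of PXN at 12 h. With no filter on low counts, those of ITGB4 and BCAR1 at 12 h and of ITGA5, PTK2B, FERMT1, LIMS1, PARVB, TGFB1I1 and ACTN4 at 24 h were lost (adjusted p = 0.0552 to 0.17). The cause was not tested. Leaving out each library in turn gave 3 to 6 members higher at 12 h, 6 to 10 lower at 24 h, with 6 without the first anti-M8nAb library, 1 to 3 past the fold threshold (1 without the first IgG or second anti-M8nAb library at 12 h, or the second anti-M8nAb library at 24 h), and 5 to 12 that differed between IgG at 24 and 12 h. Replicate numbers did not pair the libraries, since the correlation of deviations was -0.00252 at 12 h and -0.0243 at 24 h. With the replicate block, 5 members were higher and 10 lower at 12 h, 19 higher and 10 lower at 24 h, 13 differed between the times and 10 between IgG at 24 and 12 h. The calls of ITGB4 at 12 h and of ITGA5 and TGFB1I1 at 24 h were each lost under 8 of 18 alternatives. With 2 libraries a group, small changes of genes at a few CPM rest on little.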
